A study of Mus musculus with 11 samples.

Results

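CatSper is the calcium channel of the sperm flagellum. The genes described here are those of its pore subunits (Catsper1, Catsper2, Catsper3, Catsper4), those of its auxiliary subunits (Catsperb, Catsperd, Catsperg1, Catsperg2), and those of the sperm potassium channel SLO3 (Kcnu1) and the sperm Na+/H+ exchanger (Slc9c1). They were chosen by symbol, without regard to their values, and all 10 were found among the 23074 genes of the count table and passed the filter on low counts. In mature sperm the pore of CatSper is built from all of the numbered subunits, and the auxiliary subunits hold the complex together in the flagellar membrane. The channel opens when the cytoplasm becomes alkaline, and the calcium that enters drives the hyperactivated beat needed for fertilization. SLO3 carries the potassium current that hyperpolarizes sperm, and the exchanger moves protons out of the cell, so that these proteins act on the same membrane. Their genes are transcribed in the germ line of the testis, in late spermatocytes and spermatids, long before the proteins work.

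RNA-Seq had been performed on decapsulated testes of 11 separate mice at postnatal day 21 (P21), 5 wild type (WT, replicates 1 to 5) and 6 Rfx2-/- (replicates 6 to 11). RFX2 is a transcription factor that binds the X-box, an inverted repeat, and the comparison asks which of the channel transcripts differ when it is missing. Mice of both genotypes were of a mixed C57BL/6, 129/Sv and FVB/N background. In the Rfx2-/- mice exon 7 of Rfx2, which encodes much of the DNA binding domain, had been excised in every tissue with an ACTB-cre line, starting from targeted 129/Sv ES cells. The study's methods describe the mixed background line as carrying the neomycin cassette of the targeting vector (neo+), while the labels of these mice do not name the cassette. A P21 testis holds spermatogonia, abundant spermatocytes, somatic cells and a number of young round spermatids that can differ from one mouse to the next.

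The total count per mouse ran from 22232097 to 29769483. Levels are given as read counts scaled to library size (CPM) after TMM scaling, whose factors ran from 0.894 to 1.18, and 3 counts, taken as the floor of a library, equal 0.0852 to 0.139 CPM. This floor covers counting error only. Rfx2 itself was counted at 326 ± 118 CPM in WT (SD, n = 5) and 304 ± 14.6 CPM in Rfx2-/- testis (SD, n = 6). Those counts cover all of its exons and so do not check the deletion of exon 7. Marker scores, the mean log2 CPM of a list of cell type genes, differed widely between mice for both spermatid lists. According to the paper, the furthest tubules at P21 hold no spermatids beyond very early round ones. The elongating list is thus a set of genes and need not measure elongating cells here. The elongating spermatid score (9 genes, none called) ran from -1 to 6.05 in WT and from 0.83 to 6.1 in Rfx2-/- mice (exact permutation p = 0.439, adjusted p = 0.55). The round spermatid score (10 genes, such as Acrv1 and Spaca1) ran from -0.98 to 5.28 in WT and from 1.38 to 5.73 in Rfx2-/- mice (exact two-sided permutation test, p = 0.26, adjusted over 9 lists p = 0.39), and none of its 10 genes was called or at 0 in any mouse. The late spermatocyte score (10 genes, such as Pgk2 and Ldhc, none called) ran from 6.22 to 7.72 in WT and from 7.65 to 7.94 in Rfx2-/- mice (exact permutation p = 0.00866, adjusted p = 0.0585). The Sertoli cell score was 6.21 ± 0.25 in WT and 5.86 ± 0.1 in Rfx2-/- mice (adjusted p = 0.0585 by the same exact test), and the macrophage score 3.24 ± 0.39 and 2.75 ± 0.18 (adjusted p = 0.078 by the same exact test). The adjusted p of the other 4 scores (early spermatocyte, spermatogonia, Leydig and peritubular myoid cell) ran from 0.243 to 0.976 in these exact permutation tests, and 1 Leydig marker, Hsd3b1, was called lower.

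Upstream sequences are shown for Catsperg1 and Catsperd, whose levels did not overlap between the genotypes, and for Catsper4, which was called in a model described later. Each run is the 100 bases before a RefSeq start on GRCm38.p6, written 5′ to 3′ on the strand of the gene. Catsperg1 and Catsperd each have another RefSeq start, whose run is not shown. Capitals mark paired X-box half-sites, GTTNCC and GGNAAC with 0 to 3 bases between them. That pattern is its own reverse complement, so both strands were searched at once.
Catsperg1 (chr7:29214034-29214133, minus strand): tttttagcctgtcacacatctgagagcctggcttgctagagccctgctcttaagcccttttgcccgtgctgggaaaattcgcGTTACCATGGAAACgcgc
Catsperd (chr17:56628043-56628142, plus strand): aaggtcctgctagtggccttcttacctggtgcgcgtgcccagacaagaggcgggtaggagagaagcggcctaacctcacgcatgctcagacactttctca
Catsper4 (chr4:134227384-134227483, minus strand): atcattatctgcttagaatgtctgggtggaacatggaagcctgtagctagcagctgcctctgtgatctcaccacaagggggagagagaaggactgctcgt
The pair of Catsperg1 lay 18 to 5 bases before the start shown, at 29214038 to 29214051. Of the 9 windows of 7 members, each running from 250 bases before to 50 bases after a start, this window alone held a pair. The window of the other Catsperg1 start, 29210876 to 29211175, held none. A pair was present in 0.804% of all 32817 such windows in the table. The half-site GTTGCC or its reverse complement GGCAAC was in 12.5% of all windows and in none of the 9. These matches are letters in a window, not measured binding. The paper measured RFX2 binding by ChIP-Seq in germ cells of P21 WT mice, and its peaks are not reported here. RefSeq windows of Catsper1, Catsperg2 and Kcnu1 were not used here.

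Reads of every channel gene were counted in every mouse at P21, at levels that fell into a higher and a lower range. Compared per length of merged exons (RPKM), Catsper2 was the highest of the 10 and Catsperd the second in all 11 mice. Their mean levels were 72.6 ± 38.5 and 44 ± 19.7 RPKM in WT (SD, n = 5) and 126 ± 23.8 and 77.7 ± 8.22 RPKM in Rfx2-/- testis (SD, n = 6). Below them in WT came Slc9c1 (30.1 ± 14.9), Catsperg2 (28.9 ± 11.2), Catsperb (26.1 ± 11.9) and Catsperg1 (24.3 ± 8.99 RPKM), neighbours whose differences were smaller than the SD of each. The WT means of Catsper2 and Catsperd, and of Catsperd and Slc9c1, also differed by less than the SD of the higher gene. In Rfx2-/- testis the order was Catsperg1 (50.6 ± 3.63), Slc9c1 (47.2 ± 7.28), Catsperb (39 ± 4.71) and Catsperg2 (34.6 ± 2.47 RPKM). The means of Catsperg1 and Slc9c1 did not differ beyond their spread between mice, nor did those of Catsperb and Catsperg2. Within single mice, Catsperb was above Catsperg2 in every Rfx2-/- mouse. Reads that matched several places had been discarded, and the lengths were not corrected for this. Of their 46-base words, 45.7% for Catsperg1, 43.5% for Catsperg2 and 15.8% for Catsperb also occur in other genes. The RPKM of these genes may thus be too low, and their places in the order, also against Catsperd, are uncertain.

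The remaining 4 genes had lower means and large SDs. Catsper4 had 5.77 ± 9.28 RPKM in WT and 15.7 ± 17.2 in Rfx2-/- testis, Catsper1 5.63 ± 8.99 and 8.91 ± 9.5, Catsper3 4.68 ± 7.96 and 9.24 ± 10.7, and Kcnu1 3.69 ± 4.46 and 3.48 ± 2.79. No 2 neighbours among them had means that differed beyond their spread between mice. Within single mice, Catsper4 was above Catsper3 in every Rfx2-/- mouse, and Catsper1 above Catsper3 in every WT mouse. In 10 of 11 mice all 4 lay below each of the other 6 genes. The length chosen matters for closely placed genes, since with the exons of all transcripts the WT means of Catsperg1 and Catsperg2 became 17.6 and 16.3 RPKM and changed places.

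**Figure D1:**
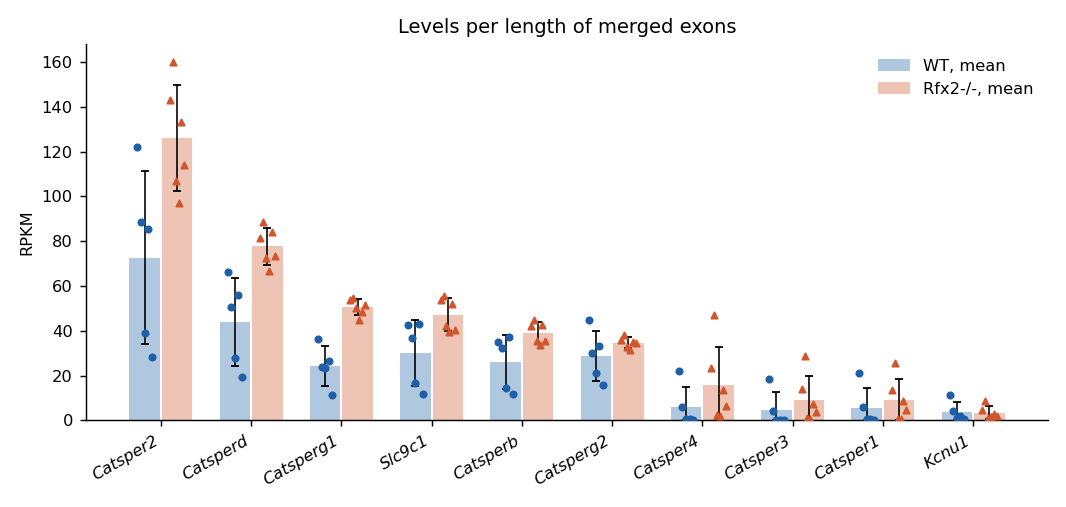
Mean level of each gene in RPKM (bars from 0, with SD as error bars cut off at 0) with every WT mouse (circles, n = 5) and every Rfx2-/- mouse (triangles, n = 6). Catsper2 and Catsperd stand highest, and Catsper4, Catsper3, Catsper1 and Kcnu1 lowest, with an SD larger than the mean for Catsper4, Catsper3 and Catsper1 in both genotypes.

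Across the 10 genes none was called higher or lower in Rfx2-/- testis by edgeR's quasi-likelihood test with p adjusted by Benjamini-Hochberg and a limit of 0.01, at which 0.73% of the 15745 tested genes were called higher and 1.94% lower. With a limit of 0.05 on the adjusted p, 1 of the 10, Catsperg1, was higher and 0 were lower, against 6.15% and 8.78% of all tested genes. Unadjusted p was under 0.05 for 3 of them in edgeR (Catsperg1, Catsperd and Catsper2, all higher), where 18.1% of all tested genes were under 0.05 and higher and 23.7% under 0.05 and lower. DESeq2 gave 5 such genes, all higher, against 23.1% of all genes higher and 21.8% lower, and limma voom gave 3, all higher, against 17.2% higher and 21.8% lower. With the limit of 0.01, DESeq2 and limma voom each called 1 of the 10 higher, Catsperg1, where they called 7.83% and 2.33% of all genes higher, and none lower. The fitted log2 fold change was above 0 for 9 of 10, with a median of 0.73, while 45.2% of all tested genes were above 0 and their median was -0.05. Marker scores of like stage were also higher in Rfx2-/- mice, by 0.73 for late spermatocytes and 1.54 for round spermatids. Their adjusted p was 0.0585 and 0.39 in exact permutation tests. The direction is thus not particular to the channel genes. Levels of Catsperd and Catsperg1 in the genotypes did not overlap, both being higher in Rfx2-/- mice, as were those of 6.5% of all tested genes. None of the 10 was without overlap in the lower direction, as 5.2% of all tested genes were. In whole testis, a difference in the number of cells of a type and a difference in RNA per cell cannot be told apart.

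**Figure D2:**
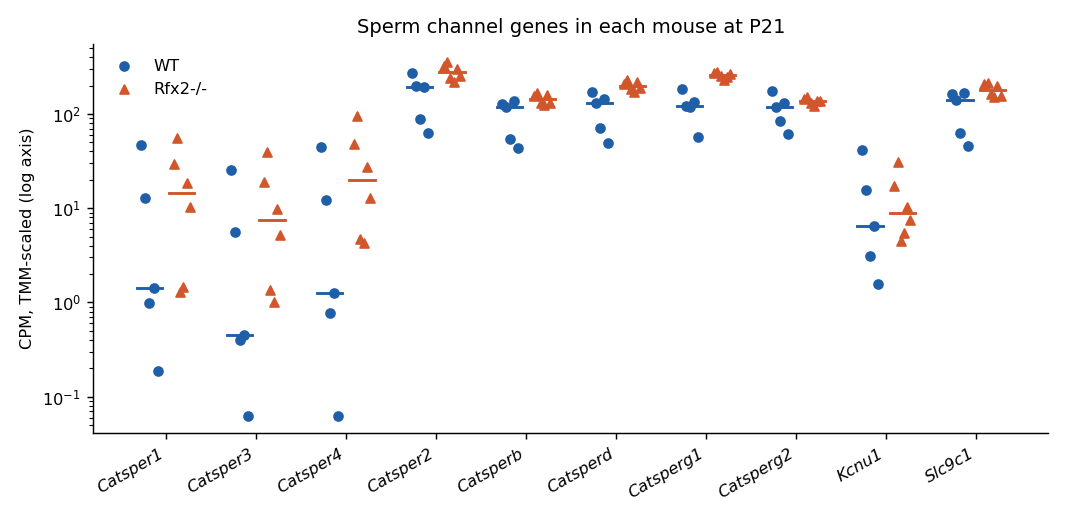
CPM of each channel gene on a log axis in the 5 WT mice (circles) and the 6 Rfx2-/- mice (triangles), with the median as a bar. Catsper1, Catsper3 and Catsper4 spread over more than a factor of 10 in both genotypes, while the points of Catsperg1 and Catsperd lie higher in every Rfx2-/- mouse than in any WT mouse.

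The pore subunit gene Catsper1 (ENSMUSG00000038498, chromosome 19) differed far more between mice of a genotype than between genotypes. In WT replicates 1 to 5 it was at 46.3, 12.7, 0.994, 1.44 and 0.189 CPM, the last from 6 reads. In the Rfx2-/- mice the lowest value was 1.29, the median 14.5 and the highest 55.9 CPM. The highest mouse exceeded the lowest 245-fold in WT and 43.1-fold in Rfx2-/- testis, and the genotypes overlapped. The log2 fold change was 0.66 (standard error 1.27, 95% interval -2.12 to 3.45, edgeR adjusted p = 0.695), became 2.35 without WT replicate 1 and was -0.01 without Rfx2-/- replicate 7, the highest mouse of its genotype for all 10 genes.

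Catsper3 (ENSMUSG00000021499, chromosome 13), another pore subunit, also spread widely between mice, with WT replicate 5 lowest and Rfx2-/- replicate 7 highest. Its WT levels were 25.3, 5.62, 0.398, 0.456 and 0.0629 CPM, the last being 2 reads and under the floor, and in Rfx2-/- mice it ran from 1.02 through a median of 7.5 to 39.1 CPM. All Rfx2-/- mice stood above WT replicates 3 to 5, while WT replicates 1 and 2 lay among them. The log2 fold change of 0.98 (standard error 1.31, edgeR adjusted p = 0.573) was smaller than its error and ran from 0.19 to 2.95 when single mice were left out, the extremes being without Rfx2-/- replicate 7 and without WT replicate 1.

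Catsper4 (ENSMUSG00000048003, chromosome 4) had the largest fitted difference of the 10. It was at 44.4, 12.3, 0.767, 1.26 and 0.0629 CPM in WT replicates 1 to 5, again with 2 reads in replicate 5, and its lowest, median and highest Rfx2-/- levels were 4.31, 20.1 and 95.2 CPM. WT replicates 3 to 5 lay under all Rfx2-/- mice, and replicates 1 and 2 did not. For Catsper4 the log2 fold change was 1.45 (standard error 1.28, edgeR adjusted p = 0.393), with values of 0.72 without Rfx2-/- replicate 7 and 3.16 without WT replicate 1.

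Catsper2 (ENSMUSG00000033486, chromosome 2), the remaining pore subunit gene, was unlike the other pore genes in level and in spread. It was counted at 274, 199, 87.9, 192 and 63.3 CPM in WT replicates 1 to 5, a 4.32-fold range, and at 218 to 359 CPM (median 277) in Rfx2-/- mice, a 1.64-fold range. WT replicate 1 lay among the Rfx2-/- mice and the other WT mice below them. Fitted by edgeR, the log2 fold change was 0.79 (standard error 0.33, 95% interval 0.06 to 1.53, edgeR adjusted p = 0.1). Its exons overlap those of Pdia3 over 18 nt, 0.801% of their length.

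The auxiliary subunit gene Catsperg1 (ENSMUSG00000049676, chromosome 7 from 29181321 to 29214035, minus strand) stood out most between the genotypes. Its WT levels were 185, 122, 119, 135 and 57 CPM in replicates 1 to 5. In Rfx2-/- replicates 6 to 11 they were 274, 277, 255, 227, 247 and 263 CPM. Every Rfx2-/- mouse was above every WT mouse, and the Rfx2-/- levels spanned a 1.22-fold range against 3.25-fold in WT. The fold of Rfx2-/- over WT was 2.08 (log2 fold change 1.06, standard error 0.23, 95% interval 0.56 to 1.55), with an edgeR adjusted p of 0.0177 that missed 0.01. The adjusted p was 4.73e-05 with DESeq2 and 0.000181 with limma voom, 0.00541 in edgeR without WT replicate 1 and 0.00264 without WT replicate 5. In edgeR without any 1 of the other 9 mice it was 0.0217 to 0.0438, and with DESeq2's size factors or total counts as library sizes it was 0.0153 or 0.0116, all of which missed 0.01.

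Catsperg2 (ENSMUSG00000049123), a near copy of Catsperg1 that lies 483.2 kb away on the same chromosome, did not share this difference. It was at 177, 120, 83.4, 131 and 61.8 CPM in the WT mice and at 123 to 151 CPM (median 137) in the Rfx2-/- mice. The Rfx2-/- levels lay inside the WT range. Its log2 fold change was 0.26 (standard error 0.22, edgeR adjusted p = 0.369). Reads that matched several places had been discarded, and 45.7% of the 46-base words of Catsperg1 transcripts and 43.5% of those of Catsperg2 also occur in the other gene, so that both counts rest on the rest of their sequence and are uncertain as levels.

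The ratio of Catsperg1 to Catsperg2 reads is free of library scaling and compares both genes in the same mouse. It was 1.05, 1.02, 1.43, 1.03 and 0.922 in WT replicates 1 to 5. In Rfx2-/- replicates 6 to 11 it was 1.92, 1.83, 1.97, 1.84, 1.79 and 1.92. WT replicate 3 was the highest of its genotype and still under all Rfx2-/- mice. The mean log2 ratio was 0.8 higher in Rfx2-/- testis, a 1.74-fold difference (exact two-sided permutation test, p = 0.00216, the smallest that splits of 11 mice into 5 and 6 can give). This ratio was formed with the earlier results in view. The ratio of Catsper4 to Catsper1 reads, chosen after its values were seen and so given with no test, was 0.333 to 0.966 in WT and 1.24 to 3.61 in Rfx2-/- mice.

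**Figure D3:**
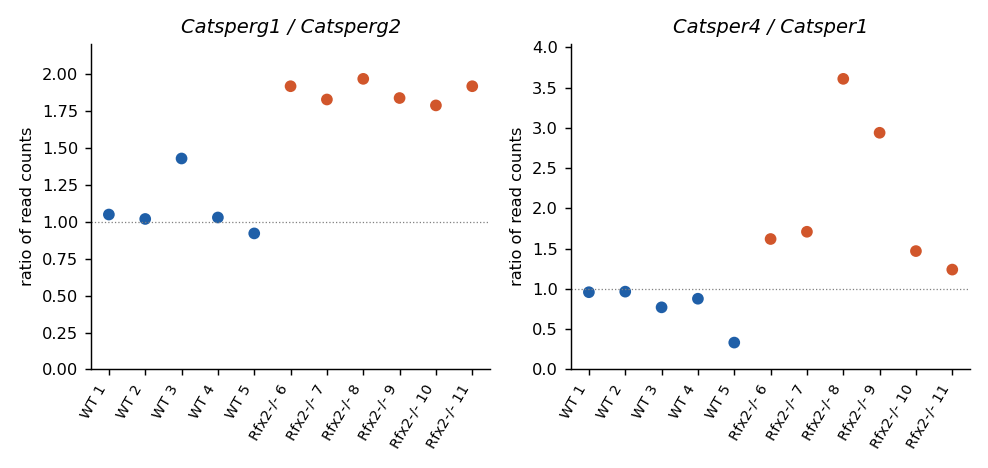
Ratio of read counts in each mouse (WT 1 to 5 in blue, Rfx2-/- 6 to 11 in orange, dotted line at 1) for Catsperg1 over Catsperg2 and for Catsper4 over Catsper1, on linear axes from 0. The Catsperg1 ratio is 0.922 to 1.43 in WT and 1.79 to 1.97 in Rfx2-/- mice, and the Catsper4 ratio is below 1 in every WT mouse and above it in every Rfx2-/- mouse.

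Catsperd (ENSMUSG00000040828, chromosome 17 from 56628143 to 56664456), an auxiliary subunit without which the channel is not assembled, was the other gene whose genotypes did not overlap. It was at 170, 130, 71.6, 144 and 49.3 CPM in WT replicates 1 to 5 and at 209, 227, 186, 171, 216 and 188 CPM in Rfx2-/- replicates 6 to 11. WT replicate 1 and Rfx2-/- replicate 9 nearly met. The fitted log2 difference was 0.82 (standard error 0.27, 95% interval 0.22 to 1.42, edgeR adjusted p = 0.0605). Catsperd lies 111.4 kb from Rfx2, the locus that was altered in 129/Sv cells, and an effect of neighbouring 129/Sv sequence and one of the missing factor cannot be told apart here.

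Catsperb (ENSMUSG00000047014, chromosome 12), a further auxiliary subunit, and the exchanger gene Slc9c1 (ENSMUSG00000033210, chromosome 16) had similar values. Catsperb was at 97 ± 44.4 CPM in WT (SD, n = 5) and 145 ± 17.5 in Rfx2-/- testis (SD, n = 6), with a log2 fold change of 0.58 (standard error 0.28, edgeR adjusted p = 0.138). Slc9c1 was at 116 ± 57 and 181 ± 27.9 CPM, with a log2 fold change of 0.65 (standard error 0.31, edgeR adjusted p = 0.139). The genotypes overlapped for both genes. Some 15.8% of the 46-base words of Catsperb occur in the pseudogene Gm18795.

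Kcnu1 (ENSMUSG00000031576, chromosome 8), which encodes the pore of SLO3, was the only one of the 10 with a fitted value below 0. Its levels were 41.1, 15.5, 3.1, 6.41 and 1.57 CPM in WT replicates 1 to 5, and 4.53, 8.94 and 31.3 CPM as the lowest, median and highest of the Rfx2-/- mice. The genotypes overlapped, with the highest mouse in WT. The log2 fold change was -0.08 (standard error 0.79, edgeR adjusted p = 0.942), and its direction turned with single mice, from 0.94 without WT replicate 1 to -0.58 without Rfx2-/- replicate 7.

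The variation between mice ordered the genes into sets, which is given as a description. WT replicate 5, the mouse with the lowest round spermatid score, had the lowest level of all 11 mice for each of the 10 genes, and Rfx2-/- replicate 7, with the highest score, had the highest level of its genotype for each. Likeness was measured as the root mean square difference of log2 CPM profiles over the 11 mice, each centred on its mean, so that 0 is an identical profile. It was 0.088 to 0.425 among Catsper2, Catsperb, Catsperd, Catsperg1, Catsperg2 and Slc9c1, with Catsperb and Slc9c1 the closest pair, and 0.401 to 0.768 among Catsper1, Catsper3 and Catsper4. Between these sets, which were formed after the values were seen, it was 1.92 to 2.39. Kcnu1 stood between them, at 0.865 to 1.1 from the first set and 1.28 to 1.6 from the second. All points come from the same 11 libraries.

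Among all genes with a mean of at least 1 CPM, those nearest to some members were also looked up after their values were seen. The nearest profile to Catsper4 was that of Smcp (0.233), which encodes a mitochondrial capsule protein of sperm. For Catsper3 it was Spam1 (0.184), a sperm surface hyaluronidase, and for Catsperg2 it was Dnah1 (0.0655), an axonemal dynein heavy chain. The closest profiles to Catsperg1 were those of Hhatl (0.185) and Irx5 (0.194), about as near as the nearest to Catsper3. For Catsper1 and Kcnu1 the nearest profile lay at 0.186 and 0.242, and for Catsper2, Catsperb, Catsperd and Slc9c1 at 0.0505 to 0.0672.

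**Figure D4:**
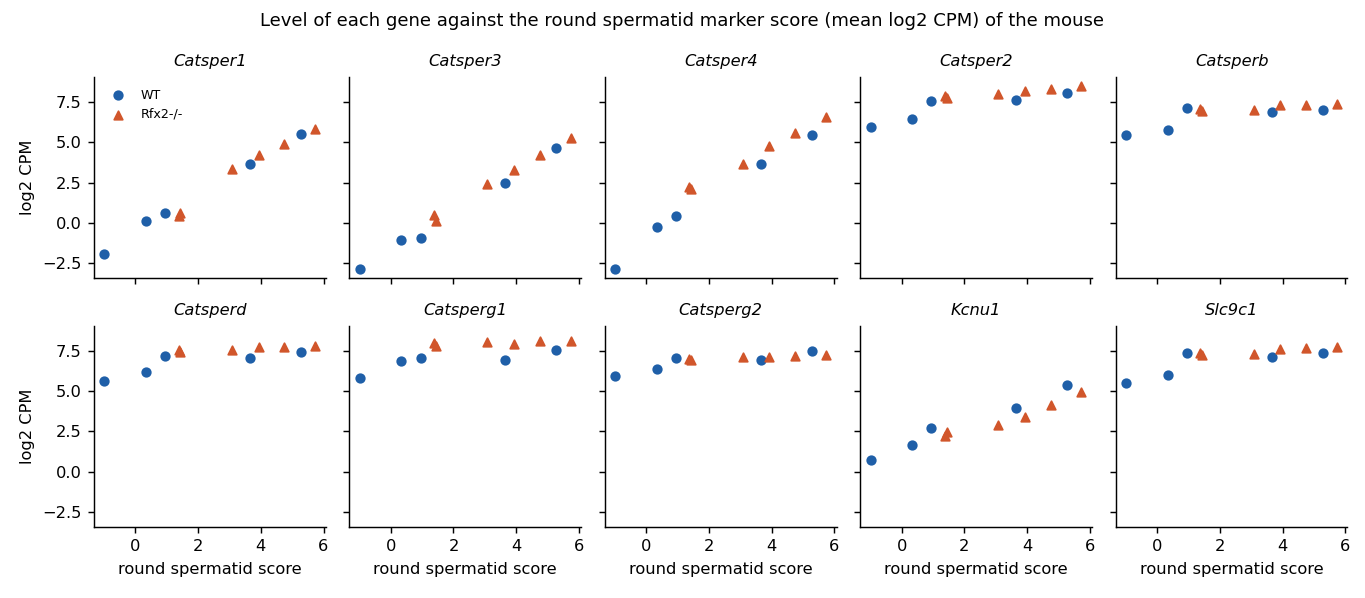
Level of each gene (log2 CPM) against the round spermatid marker score of the same mouse (mean log2 CPM of 10 genes), with WT mice as circles and Rfx2-/- mice as triangles. Catsper1, Catsper3 and Catsper4 climb steeply over the whole range of the score, and Kcnu1 less steeply with Rfx2-/- mice below WT. Catsperg1 climbs far less, from 5.834 in WT replicate 5 to 7.532 in WT replicate 1, with Rfx2-/- mice above WT.

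A model with the round spermatid score as a covariate compared the genotypes at equal score along a fitted line. WT replicates 3, 4 and 5, with scores of 0.34, 0.95 and -0.98, lay below every Rfx2-/- mouse, the lowest being at 1.38. For these mice the comparison rests on the line extended beyond the Rfx2-/- scores. Catsper4 had only 2 reads in WT replicate 5. Per unit of the score, the fitted log2 level was higher by 1.22 for Catsper3, 1.18 for Catsper1, 1.13 for Catsper4 and 0.66 for Kcnu1, but by 0.13 to 0.24 for the other 6 genes. With this covariate edgeR called 2 of the 10 higher, Catsper4 and Catsperg1, and none lower, with the limit of 0.01, where 2.15% of all tested genes were called higher and 4.41% lower. Catsper4 had a log2 fold change of 0.93 (standard error 0.17, adjusted p = 0.00357) and Catsperg1 one of 0.91 (standard error 0.17, adjusted p = 0.00453), both from edgeR. Kcnu1 had -0.59 (95% interval -0.96 to -0.23, edgeR adjusted p = 0.0277), Catsperd 0.64 (edgeR adjusted p = 0.0349) and Catsper3 0.39 (edgeR adjusted p = 0.05), none of which passed 0.01. Catsper1 had -0.05 (95% interval -0.46 to 0.35, edgeR adjusted p = 0.845). The pore genes with the steep slopes thus had different fitted values in this model, though the difference between them was not tested.

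The late spermatocyte score as a covariate gave a different picture. Per unit of this score the fitted log2 level was higher by 1.28 for Catsper2, 1.23 for Slc9c1, 1.1 for Catsperb and 1.05 for Catsperd. It was higher by 0.79 for Catsperg2, 0.65 for Catsperg1 and 2.72 to 5 for Kcnu1, Catsper1, Catsper3 and Catsper4. This score spanned a narrower range, 6.22 to 7.94, than the round spermatid score, and slopes per unit are not comparable between the scores. None of the 10 was called, by edgeR with the limit of 0.01, where 0.692% of all genes were called higher and 4.33% lower, and unadjusted p was under 0.05 for Catsperg1, Catsperg2 and Kcnu1. Catsperg1 had the largest positive value, with a log2 fold change of 0.63 (standard error 0.2, edgeR adjusted p = 0.0733). Catsper2 had 0.04, Catsperb -0.09, Catsperd 0.19 and Slc9c1 -0.09, each with an edgeR adjusted p of at least 0.263. Only WT replicate 1 had a score inside the range of the Rfx2-/- mice, so that score and genotype can hardly be told apart in this model.

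**Figure D5:**
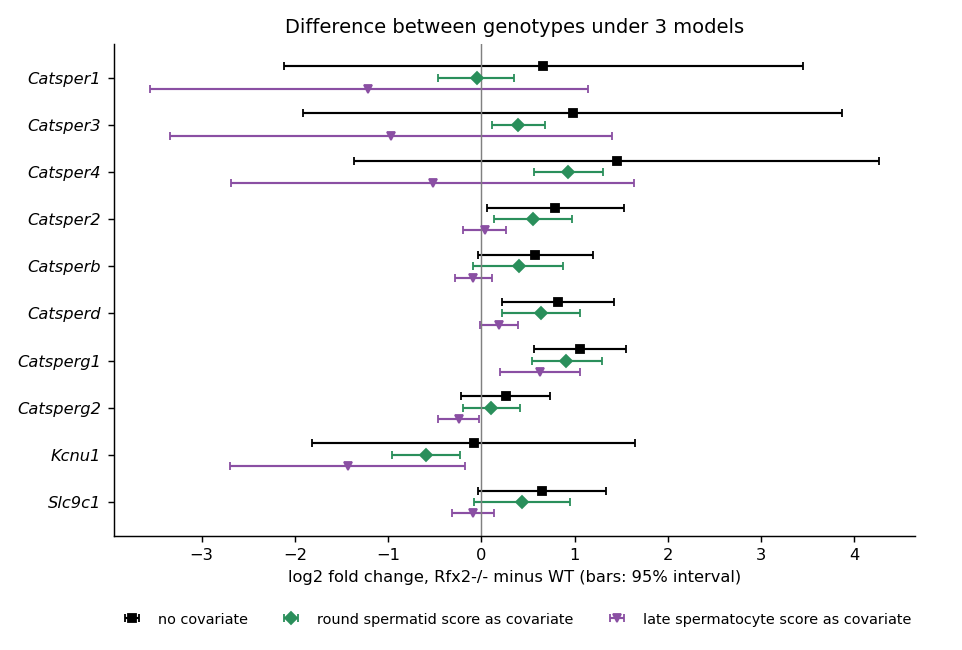
Log2 fold change of Rfx2-/- minus WT for each gene with its 95% interval, without a covariate (squares), with the round spermatid score (diamonds) and with the late spermatocyte score (triangles), from edgeR fits over 11 mice. The interval of Catsperg1 lies above 0 in all 3 models, and those of Catsper1, Catsper3 and Catsper4 shrink with the round spermatid score.

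Other proteins of the CatSper complex or its assembly were looked up by a list of 8 genes, of which 6 had a row and all 6 were tested. None was called by edgeR with the limit of 0.01, where 0.73% of all tested genes were called higher and 1.94% lower. Their median log2 fold change was 0.66, against -0.05 over all tested genes and a late spermatocyte score that was 0.73 higher. Catsperz, a small flagellar subunit, was at 205 ± 111 CPM in WT and 363 ± 63.3 in Rfx2-/- testis, with a log2 fold change of 0.83 (edgeR adjusted p = 0.101). C2cd6, needed for the complex to reach the flagellum, had a log2 fold change of 0.82 (edgeR adjusted p = 0.0686). Catspere2 was the 1 gene of the list without overlap and is named because of this. Of all tested genes, 6.5% were higher without overlap. Catspere2 was at 7.95 to 20.1 CPM in WT and 22.1 to 25.1 in Rfx2-/- testis (log2 fold change 0.6, edgeR adjusted p = 0.0902).

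A list of 12 other genes of sperm ion transport held 10 that were tested, and without a covariate 1 was called, in the higher direction. Of all tested genes, 0.73% were called higher and 1.94% lower. This was Hvcn1 (ENSMUSG00000064267), the voltage-gated proton channel, which lets protons leave the cell. It was at 32.2, 27.9, 24.3, 26.9 and 20.7 CPM in WT replicates 1 to 5 and at 53.8, 54.5, 58.3, 48.9, 49.9 and 51.7 CPM in Rfx2-/- replicates 6 to 11. The groups were far apart and the mice of each close together. The log2 fold change was 1 (standard error 0.1, edgeR adjusted p = 0.000247), and with the round spermatid score as a covariate it was 0.93 (edgeR adjusted p = 1.7e-05).

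The median log2 fold change of the 10 tested transport genes was 0.65, and 9 of 10 were above 0. Over all tested genes the median was -0.05, and 45.2% were above 0, while the late spermatocyte score was 0.73 higher in Rfx2-/- mice. Levels of 3 of the 10, Hvcn1 among them, were higher in Rfx2-/- mice without overlap, as were those of 6.5% of all tested genes. The calcium pump gene Atp2b4, at 226 ± 40.1 CPM in WT and 285 ± 5.33 in Rfx2-/- testis, did not overlap between genotypes (log2 fold change 0.34, edgeR adjusted p = 0.0523). Slc26a8, an anion transporter of sperm, had a log2 fold change of 0.46 (edgeR adjusted p = 0.213). Named after their values were seen, Pkdrej, a polycystin family membrane protein of sperm, was at 21.2 to 95.7 CPM in WT and 105 to 148 in Rfx2-/- testis (log2 fold change 1.05, edgeR adjusted p = 0.0556), without overlap. The sodium pump gene of sperm, Atp1a4, had a fitted value below 0, with levels from 0.283 to 74.3 CPM in WT and from 0 to 44.4 CPM in Rfx2-/- testis (log2 fold change -0.84, edgeR adjusted p = 0.691). With the round spermatid score as a covariate its log2 fold change was -2.13 (standard error 0.35, edgeR adjusted p = 0.00215). This passed the limit of 0.01 in the lower direction, as 4.41% of all tested genes did in that model. Atp1a4 was also named after its values were seen and had 0 reads in Rfx2-/- replicate 8. WT replicates 3, 4 and 5 lay below the Rfx2-/- scores in that model. Lrrc52, the auxiliary subunit of SLO3, had 231 reads in WT replicate 1, 278 in Rfx2-/- replicate 7 and 0 in WT replicates 4 and 5.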

How the data were processed

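Total RNA of decapsulated testes had been made into TruSeq libraries. The authors deposited 1 table of raw counts per gene and mouse, without normalization. The submitters' processing notes name CASAVA 1.8.2, STAR 2.4, featureCounts 1.4.6 and GRCm38. According to the study's methods, multiply mapping reads were discarded and reads on merged exons of protein coding isoforms were counted. The methods name different aligners and read lengths in different paragraphs, and the strand setting is not given in the sources used here. Of 23074 gene IDs, 22293 were found in the GENCODE M21 annotation, which gave symbols, positions and lengths; promoters came from the RefSeq table of GRCm38.p6.

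Counts were filtered with filterByExpr (15745 genes), scaled by TMM and compared with glmQLFit and glmQLFTest in edgeR 4.0.16 (R 4.3.3), without covariates. A gene was called when its p, adjusted by Benjamini-Hochberg over all tested genes, was 0.01 or less. Log2 CPM used a prior count of 2. Single values were compared by exact two-sided permutation tests. Replicates are separate mice, and replicate numbers are not shared between genotypes. The scripts were tested on simulated data. Alternatives were other library scalings, no filter, a mean count of at least 50, a robust prior, DESeq2 1.42.0, limma 3.58.1 voom, other thresholds, marker scores as covariates and each mouse left out in turn. Leaving mice out of the marker scores was added after seeing the data.

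All 10 members were named, with the called genes of the 2 pathway lists and at most 4 others by mean level (Catsperz, Atp2b4, C2cd6 and Slc26a8); other names were chosen after their values were seen. The members, lists, markers and covariates were chosen with earlier results of these data known. Figures were drawn with matplotlib 3.10.9 in Python 3.11.15.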

Additional observations from a re-analysis of the deposited data

Results flagged for a closer look

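In 3 of the 20 groups of values examined (10 genes in 2 genotypes), 1 mouse lay far from the others of its genotype by Dixon's ratio, and each time it was WT replicate 1. It had 46.3 CPM of Catsper1 (ratio 0.727 against a critical value of 0.71 for 5 mice), 25.3 CPM of Catsper3 (ratio 0.78) and 44.4 CPM of Catsper4 (ratio 0.723). Chance alone marks about 1 group in 20 where values are normally distributed. The ratio was taken on CPM, not on log2 CPM, and Catsper1 spread 245-fold in WT, so that rate may not hold here. The 3 genes are also not independent, since they were measured in the same library. This mouse also had the highest round spermatid score of the WT mice, 5.28, and its part in these values was not tested.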

How the results depend on the processing

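No member was called lower under any alternative. The number called higher was 0 and became 1, Catsperg1, with DESeq2, with limma voom, with a limit of 0.05 on the adjusted p, and with one of 0.01 on the unadjusted p, and 2, Catsper4 and Catsperg1, with the round spermatid score as a covariate. With single mice left out it ran from 0 to 1, being 1 without WT replicate 1 or WT replicate 5. Among the alternative log2 fold changes, 210 kept direction and side of the threshold, 8 came to pass the threshold (Catsperg1 and Catsper4) and 12 turned sign. With the round spermatid score Catsper1 turned to -0.05. With the late spermatocyte score Catsper1 turned to -1.21, Catsper3 to -0.97, Catsper4 to -0.52, Catsperb to -0.09, Catsperg2 to -0.24 and Slc9c1 to -0.09. With single mice left out Kcnu1 ran from -0.58 to 0.94 and Catsper1 from -0.01 to 2.35. The peritubular myoid score difference ran from -0.11 to 0.11. The cause of these turns was not tested. The ratio of Catsperg1 to Catsperg2 kept its direction and call with each mouse left out. This could not come out otherwise, since groups without overlap stay so and give the smallest p the exact test allows. Over all genes, the median log2 fold change was -0.05 with TMM and -0.22 with total counts as library sizes. The smallest counts, 2 reads of Catsper3 and Catsper4 in WT replicate 5, lie under the floor. No paired analysis was possible because the genotypes share no replicate numbers.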
